A study of Mus musculus with 25 samples.

Results

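Genes of the extracellular matrix were followed through 25 RNA libraries of mouse hepatocytes. They comprise the collagen chains, the laminin chains, the nidogens, the fibulins, the fibrillins, the thrombospondins, fibronectin (Fn1), tenascin C (Tnc) and the collagen-binding glycoprotein SPARC (Sparc). Members were chosen by gene symbol: every collagen symbol of the form Col, number, a, number, every Lama, Lamb, Lamc, Fbln or Thbs symbol with a single digit, and Fbn1, Fbn2, Fn1, Tnc, Sparc, Nid1 and Nid2. The rule matched 70 of 37117 gene symbols, and the 56 with at least 10 counts summed over the 25 libraries are the members. The other 14 held 0 to 9 counts, with Col24a1 (9 counts) and Col8a2 (7 counts) just under the limit and Col6a6 (11 counts) just above it. The rule itself uses no difference between groups, but a low member can reach 10 counts through the groups where it is high.

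The study compared hepatocytes with raised activity of YAP, a transcriptional coactivator that the kinases LATS1 and LATS2 of the Hippo pathway hold inactive, with their untreated counterparts. ApoYap Dox (n = 3) and ApoYap ctrl (n = 4) are mice that all carry ApoE-rtTA, a doxycycline-dependent activator named for the apolipoprotein E promoter, and TRE-hYAP, a human YAP transgene under its control. ApoYap Dox drank 0.2 mg/ml doxycycline with 2.5% sucrose for 1 week, and ApoYap ctrl was untreated. Lats1/2 KO (n = 3) and Lats1/2 flox ctrl (n = 4) are mice with both alleles of Lats1 and of Lats2 floxed. The first were taken 1 week after injection of an adeno-associated virus (AAV8) with Cre recombinase behind the hepatocyte-specific TBG promoter, and the second were not injected. C57BL/6 mice without transgene or floxed alleles were given the same doxycycline and sucrose water for 1 week (BL/6 Dox, n = 4), sampled 24 hours after the same virus (BL/6 AAV-Cre, n = 3) or left untreated (BL/6 ctrl, n = 4). Livers were perfused and digested with collagenase, and 500000 sorted cells per sample were lysed. Neither age nor sex is given in the labels. Nor is it stated that each replicate is an animal of its own, so p-values measure the spread between these samples.

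Collagens are triple helices of alpha chains that assemble into fibrils, networks or filaments, and laminins are trimers of an alpha, a beta and a gamma chain. In basement membranes, sheets of laminin and of collagen IV are joined by nidogens. The normal liver sinusoid has a loose matrix without a continuous basement membrane: hepatocytes secrete plasma fibronectin, stellate cells are the main source of fibrillar collagens, and endothelial cells contribute collagen IV and laminins. YAP binds DNA through TEAD factors, whose core motif is GGAATG, and the matrix genes that it is best known to control are the matricellular Ccn1 and Ccn2, which are not members.

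The libraries read 3′ ends, so a count stands for a transcript end and does not grow with transcript length. Libraries held between 8107539 and 16515330 counts in total, and 1 count was worth 0.0361 to 0.141 CPM, the count scaled to the TMM-adjusted library size. Ccn2 stood at 161 to 182 CPM with induced YAP (1.20 to 2.6 CPM in ApoYap ctrl) and at 62.5 to 149 CPM in Lats1/2 KO (1.19 to 1.32 CPM in Lats1/2 flox ctrl). Lats1 was at 2.97 to 5.10 CPM in Lats1/2 KO against 12.3 to 14.9 CPM in Lats1/2 flox ctrl, while Lats2 overlapped (7.70 to 17.8 CPM in Lats1/2 KO against 12.9 to 13.7 CPM in Lats1/2 flox ctrl). Which exons are deleted is not in the labels, and a 3′ tag outside them checks nothing. In BL/6 Dox 1 the summed levels of stellate cell and of endothelial markers were the lowest of all libraries, at 8.74 and 43.4 CPM. In Lats1/2 KO 2 the stellate cell sum was the highest, at 767 CPM.

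Promoter sequences are shown for members on which the results below turn, as 300 bases from 250 before to 50 after a RefSeq transcription start (build GRCm38.p6), 5′ to 3′ on the strand of the gene. Col4a1 and Col4a2, which encode the chains of the common collagen IV network, lie head to head on chromosome 8 and were called higher in both models. Col4a1 is on the minus strand at chr8:11312777-11313076 and Col4a2 on the plus strand at chr8:11312555-11312854. Capitals mark the 78 bases that both windows hold, on opposite strands. Nid1 (plus strand, chr13:13437352-13437651), the nidogen that links laminin to collagen IV, rose more than any other member under YAP. Col18a1 (minus strand, chr10:77113656-77113955), the collagen whose end fragment is endostatin, fell. In the last pair capitals mark the letters GGAATG or their reverse complement CATTCC.
Col4a1: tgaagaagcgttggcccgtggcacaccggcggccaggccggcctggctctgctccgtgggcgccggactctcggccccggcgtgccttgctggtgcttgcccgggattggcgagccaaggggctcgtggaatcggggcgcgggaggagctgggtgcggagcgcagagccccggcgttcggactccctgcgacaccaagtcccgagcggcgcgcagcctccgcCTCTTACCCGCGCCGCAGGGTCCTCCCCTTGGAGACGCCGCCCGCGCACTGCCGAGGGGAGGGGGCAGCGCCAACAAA
Col4a2: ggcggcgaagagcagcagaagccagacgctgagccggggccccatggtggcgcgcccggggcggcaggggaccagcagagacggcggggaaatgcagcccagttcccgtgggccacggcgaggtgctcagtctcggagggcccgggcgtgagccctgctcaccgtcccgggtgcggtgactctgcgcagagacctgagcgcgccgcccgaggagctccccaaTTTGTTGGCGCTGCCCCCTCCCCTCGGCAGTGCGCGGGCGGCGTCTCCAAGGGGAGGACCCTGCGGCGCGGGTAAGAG
Nid1: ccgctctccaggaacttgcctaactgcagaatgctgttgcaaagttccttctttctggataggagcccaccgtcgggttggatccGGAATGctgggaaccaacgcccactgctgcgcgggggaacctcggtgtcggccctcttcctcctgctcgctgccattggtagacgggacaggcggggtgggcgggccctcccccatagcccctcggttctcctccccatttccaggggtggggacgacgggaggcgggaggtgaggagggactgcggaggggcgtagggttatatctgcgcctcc
Col18a1: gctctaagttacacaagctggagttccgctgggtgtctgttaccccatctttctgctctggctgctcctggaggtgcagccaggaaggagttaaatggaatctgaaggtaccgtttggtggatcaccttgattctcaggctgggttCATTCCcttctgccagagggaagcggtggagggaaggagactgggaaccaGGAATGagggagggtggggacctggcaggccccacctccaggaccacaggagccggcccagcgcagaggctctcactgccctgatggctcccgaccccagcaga
The Nid1 window holds the motif once, from 165 bases before the start, and the Col18a1 window holds it once on each strand. For Nid1 and Col18a1 only a window with the motif was shown. The Col18a1 start is internal: the gene on the minus strand begins at 77166548 (GENCODE M21). A match describes letters only and is no evidence that a factor binds there.

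In untreated hepatocytes 2 genes made up most of the matrix gene counts. Fn1, which encodes fibronectin (GRCm38 chromosome 1, 71585520 to 71653200, minus strand, GENCODE M21), and Col18a1 (chromosome 10, 77052178 to 77166548, minus strand) together held 84.0% ± 1.21 of them in ApoYap ctrl, 83.9% ± 1.33 in Lats1/2 flox ctrl and 81.9% ± 3.16 in BL/6 ctrl (SD, n = 4 each). Both are genes that hepatocytes express. Sparc held 3.21% ± 1.08, 2.51% ± 0.819 and 3.40% ± 1.13 in the same groups. 

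The make-up changed in both models of raised YAP activity. Fn1 and Col18a1 held 42.0% ± 11.8 of the matrix gene counts in ApoYap Dox (SD, n = 3) against the 84.0% in ApoYap ctrl. Their share was 56.6% ± 13.4 in Lats1/2 KO (SD, n = 3) against the 83.9% in Lats1/2 flox ctrl. Sparc alone took 26.1% ± 7.02 in ApoYap Dox and 17.3% ± 7.09 in Lats1/2 KO. The summed level of the other 54 members was 631 ± 157 CPM in ApoYap Dox against 166 ± 22.2 CPM in ApoYap ctrl, and 571 ± 300.0 CPM in Lats1/2 KO against 166 ± 14.3 CPM in Lats1/2 flox ctrl. Every ApoYap Dox and every Lats1/2 KO library lay above every library of its control group in that sum, the closest being Lats1/2 KO 3 with 306 CPM. In scaled CPM the sum over all 56 members was nearer between groups, at 1081 ± 85.8 CPM in ApoYap Dox against 1032 ± 67.6 CPM in ApoYap ctrl. It was 1263 ± 313 CPM in Lats1/2 KO against 1028 ± 13.1 CPM in Lats1/2 flox ctrl. As a share of all counts, without scaling, it was 0.191% ± 0.0217 in ApoYap Dox against 0.0965% ± 0.00880 in ApoYap ctrl, and 0.151% ± 0.0462 in Lats1/2 KO against 0.0883% ± 0.00350 in Lats1/2 flox ctrl.

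**Figure D1:**
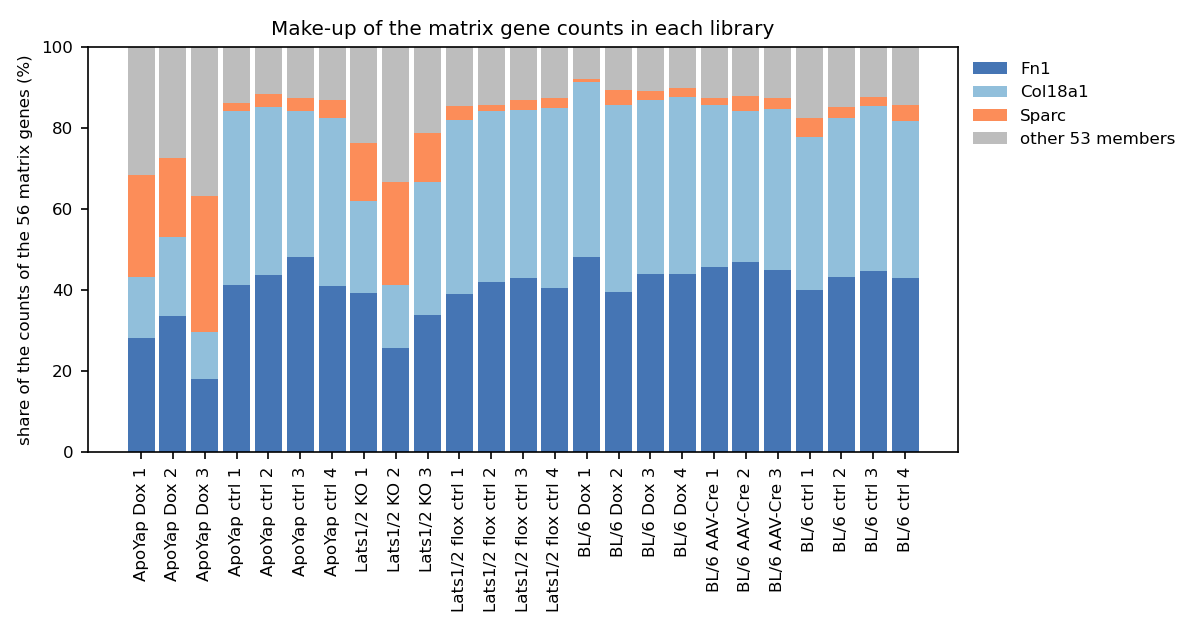
Share (%) of the counts of the 56 matrix genes held by Fn1, Col18a1, Sparc and the other 53 members, 1 bar per library. Fn1 and Col18a1 together fill 29.6 to 53.1% in ApoYap Dox and 41.3 to 66.6% in Lats1/2 KO, against 77.8 to 91.4% in the libraries of the other 5 groups.

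Most of the matrix genes that could be tested were higher after 1 week of YAP induction, and a few were lower. Nid1, the laminin chain Lamb2, the collagen IV chain Col4a4, Thbs1, Lama5 and Sparc rose by at least 3.08 on the log2 scale. Col15a1, Lamb3, Col5a3 and Lama3 fell by at least 3.11, and the abundant Fn1 fell by 0.66 with TMM scaling but not with total counts alone (0.24). Of the 56 members 37 passed the filter on low counts and were tested by quasi-likelihood in edgeR, with p-values adjusted after Benjamini and Hochberg over 12970 genes. A gene is called where the adjusted p is under 0.05. Of the 37 genes 25 were called higher (67.6%; 35.0% of all genes tested were), 7 were called lower (18.9%; 32.0% of all genes) and 5 passed in neither direction. The median log2 fold change was 1.31 over the 37 and 0.07 over all genes. Scaling by total counts alone moved the median of all genes by 0.92, and the 37 gave 28 higher and 6 lower calls. Of the 37 genes 12 passed the filter only through the ApoYap Dox or Lats1/2 KO libraries and had little room to be called lower. Among the other 25 there were 15 higher and 7 lower calls. Shares of all genes under that filter or with total counts alone are not given, so those counts are not compared with all genes.

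In the knockout, too, more of the matrix genes rose than fell. Lama1, Nid1, Col16a1, Lamb2 and Sparc rose by at least 3.16, Col15a1, Lama3, Col5a3 and Lamb3 fell by at least 1.59, and Col1a1 was not called, nor was Fn1 except with total counts alone, where it was higher (0.42). Of the 37 genes 23 were called higher (62.2%; 20.6% of all genes tested were), 6 lower (16.2%; 17.4% of all genes) and 8 in neither direction. The median log2 fold change was 2.16 over the 37 and −0.03 over all genes. Total counts alone moved that median by 0.47 and gave 27 higher and 3 lower calls. Among the 25 genes that passed the filter without the ApoYap Dox and Lats1/2 KO libraries, 16 were higher and 6 lower. Here, too, neither these counts nor those with total counts alone are compared with all genes. The comparisons share no libraries, but they share the fit and the filter on low counts. Of the 37 genes 20 were called higher in both (18.2% of all genes were). Called lower in both were 6 (15.3% of all genes), and 0 went in opposite directions (0.416% of all genes). Among those higher in both, Col16a1, Col5a2, Col6a2, Fbln5, Fbn1 and Nid2 passed the filter only through the ApoYap Dox or Lats1/2 KO libraries. Genes called higher only under YAP induction were Col1a1, Col4a4, Col8a1, Lama5 and Thbs1. Those called higher only in the knockout were Col6a1, Lama1 and Lamb1, and Fn1 was called lower only under YAP induction, and not with total counts alone. A call in 1 comparison and not the other does not show that the responses differ; the tests of the differences are given further on.

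**Figure D2:**
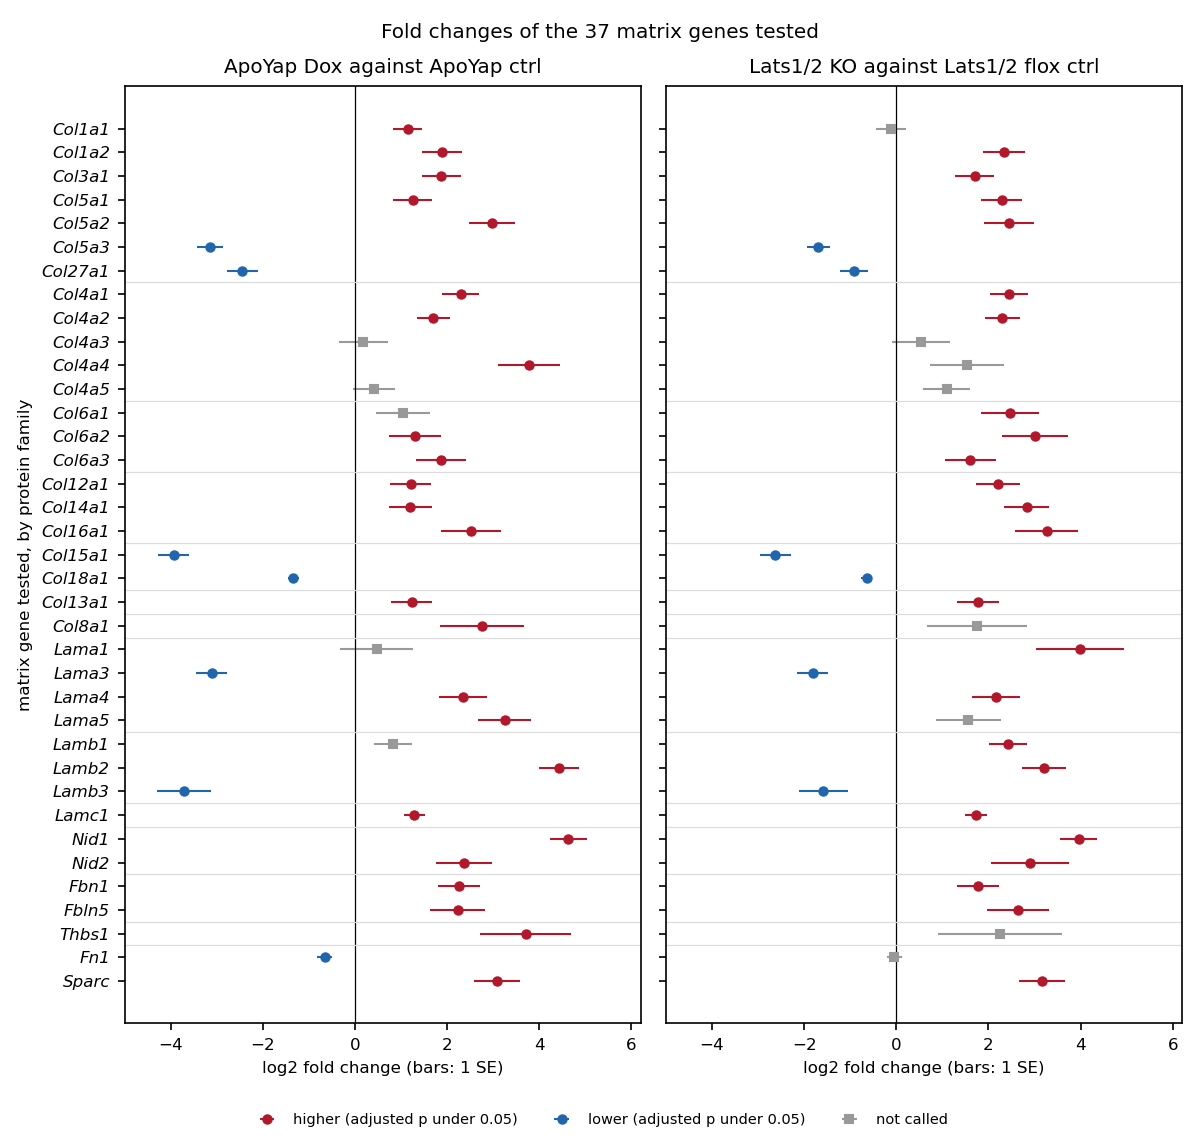
Log2 fold change with its standard error for the 37 tested matrix genes, ordered by protein family, in ApoYap Dox against ApoYap ctrl (left) and Lats1/2 KO against Lats1/2 flox ctrl (right). Red marks 25 and 23 genes called higher, blue 7 and 6 called lower; with scaling by total counts alone Fn1 lies on the right of 0 in both panels.

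Markers of other liver cell types moved with these genes. Cells of another type in the sort and RNA per cell cannot be told apart in such samples. In ApoYap Dox the 15 macrophage markers summed to 7469.7 to 11955 CPM against 100.0 to 225 CPM in ApoYap ctrl. The 17 sinusoidal endothelial markers summed to 757 to 1351 CPM against 90.3 to 223 CPM in ApoYap ctrl, and the 19 stellate cell and fibroblast markers to 172 to 230.5 CPM against 60.3 to 136 CPM in ApoYap ctrl. All 15 macrophage and 17 endothelial markers and 9 of 19 stellate cell markers were called higher (17 of 19 with total counts alone). In Lats1/2 KO the macrophage sum was 756 to 1781 CPM against 101 to 297 CPM in Lats1/2 flox ctrl. The endothelial sum was 484 to 1157 CPM against 98.1 to 265 CPM in Lats1/2 flox ctrl and the stellate cell sum 269 to 767 CPM against 69.3 to 85.2 CPM in Lats1/2 flox ctrl, with 15 of 15, 16 of 17 and 19 of 19 markers called higher. Of all genes tested 35.0% were called higher under YAP induction and 20.6% in the knockout. None of these 51 markers was at 0 in any group. Their part in the results for the matrix genes was not tested.

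The ratio of group means was 52.1 for the macrophage sum, 6.27 for the endothelial sum and 2.23 for the stellate cell sum under YAP induction, and 6.73, 4.96 and 6.18 in the knockout. Beside these, the ratio for Nid1 was 24.5 under YAP induction and 15.6 in the knockout, and that for Sparc was 8.45 and 8.97. Col1a2 stood at 3.70 and 5.07, and Col14a1 at 2.28 and 7.16. Platelet markers (5 genes), of which Gp1bb and Gp9 were at 0 in both control groups, summed to 64.0 to 80.1 CPM in ApoYap Dox, with 1.87 to 3.32 CPM for ApoYap ctrl, and to 3.08 to 12.6 CPM in Lats1/2 KO against 0.834 to 2.5 CPM in Lats1/2 flox ctrl. The 6 neutrophil markers, of which Ly6g was at 0 in all 4 groups, summed to 13.1 to 31.1 CPM in ApoYap Dox, with 0.283 to 1.35 CPM for ApoYap ctrl, and to 1.11 to 4.04 CPM in Lats1/2 KO against 0.329 to 0.690 CPM in Lats1/2 flox ctrl. The 4 mesothelial markers stayed under 1 CPM in sum in each library of these groups. Cholangiocyte markers (9 genes) summed to 38.4 to 54.3 CPM in ApoYap Dox, with 39.1 to 52.4 CPM for ApoYap ctrl. Without TMM scaling that sum was 64.5 to 96.3 CPM in ApoYap Dox, with 36.7 to 48.7 CPM for ApoYap ctrl. The scaled sum was 68.5 to 219 CPM in Lats1/2 KO against 43.8 to 85.3 CPM in Lats1/2 flox ctrl, with overlap. Of the 9 cholangiocyte markers 3 were at 0 in Lats1/2 flox ctrl, Krt7 and Cldn4 among them, and 1 was at 0 in ApoYap ctrl. The summed level of the 8 hepatocyte markers in the table, albumin (Alb) among them, was high in every library and, with TMM scaling, lower in both models, at 25593 to 36128 CPM in ApoYap Dox, with 64453 to 84728 CPM for ApoYap ctrl, and at 46952 to 50947 CPM in Lats1/2 KO against 74143 to 86708 CPM in Lats1/2 flox ctrl. Without TMM scaling the hepatocyte sum overlapped under YAP induction (46934 to 64020 CPM in ApoYap Dox, with 63100 to 77741 CPM for ApoYap ctrl) and did not in the knockout (55860 to 60522 CPM in Lats1/2 KO, with 61525 to 72087 CPM for Lats1/2 flox ctrl).

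**Figure D3:**
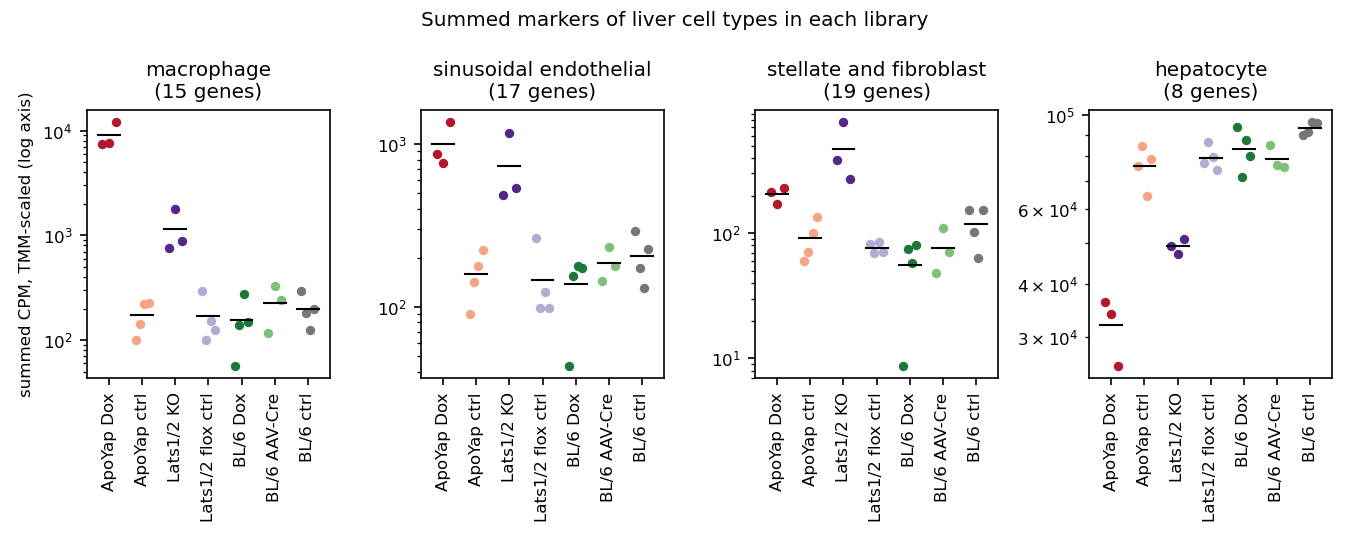
Summed TMM-scaled CPM (log axis) of markers of 4 liver cell types, 1 point per library with the group mean as a line. ApoYap Dox and Lats1/2 KO lie above their control groups for macrophage, endothelial and stellate cell markers and below them for hepatocyte markers, where ApoYap Dox and ApoYap ctrl overlap without TMM scaling, and BL/6 Dox 1 is lowest for stellate cell (8.74 CPM) and endothelial (43.4 CPM) markers.

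Among basement membrane genes the nidogens and the common collagen IV chains rose in both models. Nid1 (chromosome 13, 13437551 to 13512269, plus strand) stood at 77.3, 59.4 and 59.8 CPM in ApoYap Dox against 1.84, 2.43, 2.80 and 3.61 CPM in ApoYap ctrl (log2 fold change 4.63, SE 0.40, adjusted p = 1.5e-09). In Lats1/2 KO it was at 57.3, 61.6 and 18.3 CPM against 3.73, 2.04, 3.57 and 2.37 CPM in Lats1/2 flox ctrl (log2 fold change 3.96, SE 0.40, adjusted p = 2.2e-07). Every ApoYap Dox and Lats1/2 KO library lay far above the control range, and Lats1/2 KO 3 was the lowest of the 6. Nid2, the second nidogen, was at 2.35, 1.95 and 2.65 CPM in ApoYap Dox against 0.777, 0.587, 0.104 and 0.201 CPM in ApoYap ctrl (log2 fold change 2.36, SE 0.60, adjusted p = 0.0013). Nid2 stood at 1.38, 0.958 and 0.424 CPM in Lats1/2 KO against 0.110, 0, 0.238 and 0.0986 CPM in Lats1/2 flox ctrl (log2 fold change 2.91, SE 0.85, adjusted p = 0.0082). Its last 1000 bases overlap Rtraf on the other strand, and whether counting used the strand is not given, so its level is uncertain.

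Col4a1 (chromosome 8, 11198423 to 11312826, minus strand) was at 71.4, 51.8 and 104 CPM in ApoYap Dox against 11.7, 10.6, 22.1 and 17.9 CPM in ApoYap ctrl (log2 fold change 2.29, SE 0.39, adjusted p = 3.4e-05). Col4a1 stood at 46.8, 103 and 31.7 CPM in Lats1/2 KO against 12.6, 8.06, 7.74 and 15.8 CPM in Lats1/2 flox ctrl (log2 fold change 2.44, SE 0.40, adjusted p = 9.6e-05). Col4a2 (chromosome 8, 11312805 to 11449287, plus strand) was at 28.2, 19.9 and 35.7 CPM in ApoYap Dox against 5.65, 7.29, 11.5 and 10.1 CPM in ApoYap ctrl (log2 fold change 1.70, SE 0.36, adjusted p = 0.0003). Col4a2 stood at 23.6, 43.2 and 14.3 CPM in Lats1/2 KO against 7.24, 3.97, 3.81 and 6.80 CPM in Lats1/2 flox ctrl (log2 fold change 2.30, SE 0.38, adjusted p = 7.4e-05). The groups did not overlap for either gene, and in both ApoYap Dox 3 and Lats1/2 KO 2 were the highest of their groups. Without Lats1/2 KO 2 the knockout value of Col4a1 was 1.82. A predicted gene on the other strand, Gm15418, overlaps the last 1000 bases of Col4a1.

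The other collagen IV chains did not follow them as a block. Col4a3 and Col4a4, which form the network of the kidney filter, also lie head to head, with starts 72 bases apart on chromosome 1. Col4a4 was at 3.94, 2.17 and 2.36 CPM in ApoYap Dox against 0.212, 0.0838, 0.104 and 0.401 CPM in ApoYap ctrl and was called higher (log2 fold change 3.77, SE 0.67, adjusted p = 2.5e-05). Col4a3 was at 1.63, 0.724 and 1.11 CPM in ApoYap Dox against 0.848, 0.922, 1.25 and 1.10 CPM in ApoYap ctrl and was not called (log2 fold change 0.18, SE 0.53, adjusted p = 0.77). All 3 ApoYap Dox libraries were above the controls for Col4a4, and the groups overlapped for Col4a3. C430014B12Rik on the other strand overlaps the last 1000 bases of Col4a3, so its level is uncertain. In the knockout comparison neither gene was called, with Col4a4 at 0.259, 0.684 and 0.743 CPM in Lats1/2 KO against 0.329, 0.227, 0.119 and 0.0986 CPM in Lats1/2 flox ctrl (log2 fold change 1.54, SE 0.80, adjusted p = 0.14) and Col4a3 at 0.547 to 0.865 CPM in Lats1/2 KO against 0 to 0.878 CPM in Lats1/2 flox ctrl (0.54). Col4a5, the partner of these chains in the kidney, was not called in either comparison (0.41 and 1.09).

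Laminin chains split by family member. Lamb2, a beta chain of vascular and neuromuscular basement membranes (chromosome 9, 108479736 to 108490530, plus strand), was at 25.5, 29.1 and 21.6 CPM in ApoYap Dox against 1.06, 1.01, 1.04 and 1.60 CPM in ApoYap ctrl (log2 fold change 4.43, SE 0.43, adjusted p = 2.2e-09). Lamb2 stood at 7.09, 8.35 and 3.87 CPM in Lats1/2 KO against 1.32, 0.341, 0.357 and 0.690 CPM in Lats1/2 flox ctrl (log2 fold change 3.21, SE 0.48, adjusted p = 1.4e-05). The ApoYap Dox libraries were all above the Lats1/2 KO libraries, but the difference of the fold changes, −1.22 (SE 0.68, adjusted p = 0.19), did not pass. Lamc1, the gamma chain of most laminins, was at 12.4, 12.4 and 10.6 CPM in ApoYap Dox against 3.89, 5.28, 5.51 and 4.71 CPM in ApoYap ctrl (log2 fold change 1.29, SE 0.23, adjusted p = 2.7e-05). Lamc1 stood at 15.8, 20.5 and 10.3 CPM in Lats1/2 KO against 4.50, 4.88, 5.96 and 3.35 CPM in Lats1/2 flox ctrl (log2 fold change 1.74, SE 0.24, adjusted p = 4e-06). Both comparisons were without overlap. Lama4, an alpha chain of vascular basement membranes, was at 4.48, 3.85 and 6.76 CPM in ApoYap Dox against 0.918, 0.419, 1.04 and 1.60 CPM in ApoYap ctrl (log2 fold change 2.35, SE 0.53, adjusted p = 0.0004). Lama4 stood at 4.58, 10.4 and 4.14 CPM in Lats1/2 KO against 2.96, 0.681, 1.91 and 0.197 CPM in Lats1/2 flox ctrl (log2 fold change 2.16, SE 0.52, adjusted p = 0.0021). The groups did not overlap for Lama4 in either comparison.

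The chains Lama5, Lama1 and Lamb1 were each called in a single model with TMM scaling. Lama5, a broadly used alpha chain of mature basement membranes, was at 4.66, 2.04 and 2.90 CPM in ApoYap Dox against 0.424, 0.168, 0.623 and 0.100 CPM in ApoYap ctrl (log2 fold change 3.25, SE 0.58, adjusted p = 2.6e-05). Lama5 stood at 0.605, 1.30 and 0.371 CPM in Lats1/2 KO against 0.439, 0.114, 0.238 and 0.197 CPM in Lats1/2 flox ctrl, where the groups overlapped and it was not called (log2 fold change 1.57, SE 0.70, adjusted p = 0.083). The alpha and beta chains of the embryonic laminin, Lama1 and Lamb1, were called higher in the knockout only. Lama1 was at 1.82, 4.11 and 1.06 CPM in Lats1/2 KO against 0.219, 0.114, 0 and 0.197 CPM in Lats1/2 flox ctrl (log2 fold change 3.99, SE 0.96, adjusted p = 0.002; 3.28 without Lats1/2 KO 2). Lama1 stood at 1.34, 0.452 and 0.579 CPM in ApoYap Dox against 0, 0.587, 0.519 and 1.30 CPM in ApoYap ctrl, with overlap and no call (log2 fold change 0.47, SE 0.79, adjusted p = 0.61). Lamb1 was at 12.7, 17 and 4.72 CPM in Lats1/2 KO against 3.18, 2.27, 0.953 and 2.07 CPM in Lats1/2 flox ctrl (log2 fold change 2.42, SE 0.42, adjusted p = 7.2e-05). Lamb1 stood at 6.00, 3.35 and 4.97 CPM in ApoYap Dox against 1.84, 2.35, 2.6 and 4.11 CPM in ApoYap ctrl (log2 fold change 0.82, SE 0.40, adjusted p = 0.074). The Lamb1 groups overlapped under YAP induction and the value was not called, although scaling by totals alone gave a call (1.75, adjusted p = 0.00066).

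Of the fibrillar collagens, the chains of collagens I and III, which build fibres in scar tissue, and the collagen V chains Col5a1 and Col5a2 rose under YAP induction. Col1a2 was at 22.9, 13.3 and 27.3 CPM in ApoYap Dox against 3.53, 6.54, 5.19 and 7.62 CPM in ApoYap ctrl (log2 fold change 1.89, SE 0.43, adjusted p = 0.00055). Col3a1 was at 20.6, 11.1 and 28.1 CPM in ApoYap Dox against 3.46, 5.45, 5.19 and 7.82 CPM in ApoYap ctrl (log2 fold change 1.87, SE 0.42, adjusted p = 0.00047). The groups overlapped for neither gene, and ApoYap Dox 2 was the lowest induced library in both. Col5a1 and Col5a2, chains of the collagen that starts type I fibrils, rose by 1.25 and 2.98 (2.67 to 4.78 and 1.95 to 3.47 CPM in ApoYap Dox against 1.20 to 2.49 and 0.0706 to 0.727 CPM in ApoYap ctrl). Beside them, the stellate cell marker sum had a ratio of means of 2.23, and the part of such cells was not tested.

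Col1a2 was at 13.8, 33.4 and 6.89 CPM in Lats1/2 KO against 2.96, 4.32, 2.62 and 4.34 CPM in Lats1/2 flox ctrl (log2 fold change 2.33, SE 0.45, adjusted p = 0.00038). Col3a1 stood at 16.4, 29.6 and 8.49 CPM in Lats1/2 KO against 4.72, 6.70, 3.81 and 7.0 CPM in Lats1/2 flox ctrl (log2 fold change 1.70, SE 0.43, adjusted p = 0.0032). The groups overlapped for neither gene, and Lats1/2 KO 2 was the highest library in both. Without it Col1a2 was at 1.52 and Col3a1 at 1.15, which was no longer called (adjusted p = 0.054). Col5a1 and Col5a2 rose by 2.29 and 2.45 (2.86 to 10.3 and 0.743 to 2.81 CPM in Lats1/2 KO against 0.454 to 1.77 and 0.227 to 0.658 CPM in Lats1/2 flox ctrl).

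Col1a1, the partner chain of Col1a2 in type I collagen (chromosome 11, 94936224 to 94953042, plus strand), was called under YAP induction only. It was at 17.8, 9.77 and 25.9 CPM in ApoYap Dox against 6.78, 10.2, 7.48 and 7.72 CPM in ApoYap ctrl (log2 fold change 1.14, SE 0.32, adjusted p = 0.0029). Col1a1 stood at 11.4, 14.0 and 6.52 CPM in Lats1/2 KO against 6.80, 13.6, 10.4 and 15.1 CPM in Lats1/2 flox ctrl (log2 fold change −0.12, SE 0.33, adjusted p = 0.81). ApoYap Dox 2 fell within the range of its controls, and the knockout groups overlapped throughout. In untreated hepatocytes Col1a1 was counted above Col1a2, with 6.78 to 10.2 against 3.53 to 7.62 CPM in ApoYap ctrl and 6.80 to 15.1 against 2.62 to 4.34 CPM in Lats1/2 flox ctrl. Col1a2 had the higher CPM of the pair in each of the 6 ApoYap Dox and Lats1/2 KO libraries and Col1a1 in each of the other 19, although in ApoYap ctrl 4 and Lats1/2 KO 3 they were close to equal. The sign of the Col1a1 knockout value changed with total counts alone (0.38).

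A second set of fibrillar chains fell. Col5a3, the third chain of collagen V (chromosome 9, 20770050 to 20815067, minus strand), was at 1.63, 0.679 and 1.25 CPM in ApoYap Dox against 11.9, 9.81, 7.89 and 13.1 CPM in ApoYap ctrl (log2 fold change −3.15, SE 0.28, adjusted p = 5.8e-10). Col5a3 stood at 6.66, 8.01 and 5.57 CPM in Lats1/2 KO against 27.5, 17.9, 26.8 and 14.7 CPM in Lats1/2 flox ctrl (log2 fold change −1.69, SE 0.25, adjusted p = 1.1e-05). Col27a1, a fibrillar collagen known from cartilage, was at 5.17, 4.12 and 5.79 CPM in ApoYap Dox against 46.6, 20.4, 23.4 and 18.4 CPM in ApoYap ctrl (log2 fold change −2.44, SE 0.33, adjusted p = 1.1e-06). Col27a1 stood at 19.9, 15.6 and 26.7 CPM in Lats1/2 KO against 34.9, 57.7, 41.9 and 23.6 CPM in Lats1/2 flox ctrl (log2 fold change −0.93, SE 0.30, adjusted p = 0.02). Col5a3 was without overlap in both comparisons, whereas Lats1/2 KO 3 reached into the control range for Col27a1. Col27a1 lost its knockout call when Lats1/2 KO 2 (−0.75), Lats1/2 KO 1 (−0.89) or Lats1/2 flox ctrl 2 (−0.69) was left out, and also with total counts alone (−0.47), without a filter on low counts (−0.91) and with only the compared groups (−0.86).

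Further lower genes were the multiplexins and the epithelial laminin chains. Col15a1, a collagen of the zone under basement membranes (chromosome 4, 47208161 to 47313167, plus strand), was at 0.650, 0.317 and 0.965 CPM in ApoYap Dox against 13.5, 7.96, 9.35 and 8.82 CPM in ApoYap ctrl (log2 fold change −3.93, SE 0.34, adjusted p = 2.1e-10). Col15a1 stood at 1.82, 0.684 and 0.955 CPM in Lats1/2 KO against 8.01, 8.63, 5.12 and 6.02 CPM in Lats1/2 flox ctrl (log2 fold change −2.62, SE 0.33, adjusted p = 1.4e-06). Its relative Col18a1 was at 174, 193 and 129 CPM in ApoYap Dox against 415, 408, 388 and 455 CPM in ApoYap ctrl (log2 fold change −1.33, SE 0.12, adjusted p = 5.4e-10). Col18a1 stood at 304, 239 and 300.5 CPM in Lats1/2 KO against 442, 439, 426 and 450.2 CPM in Lats1/2 flox ctrl (log2 fold change −0.64, SE 0.12, adjusted p = 0.00013). Neither gene overlapped in either comparison. With total counts alone the Col18a1 values were −0.42 under YAP induction and −0.18 in the knockout, where the knockout value was not called (adjusted p = 0.13). The last 1000 bases of Col18a1 overlap Slc19a1 on the other strand.

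Lama3 and Lamb3, chains of the laminin that anchors skin epithelium, were low in all groups. Lama3 was at 0.723, 0.226 and 0.386 CPM in ApoYap Dox against 3.89, 3.94, 4.67 and 3.61 CPM in ApoYap ctrl (log2 fold change −3.11, SE 0.34, adjusted p = 1.7e-08). Lama3 stood at 1.04, 0.684 and 1.22 CPM in Lats1/2 KO against 3.18, 3.97, 2.38 and 4.44 CPM in Lats1/2 flox ctrl (log2 fold change −1.82, SE 0.33, adjusted p = 0.00013). Lamb3 was at 0.108, 0.181 and 0 CPM in ApoYap Dox against 1.20, 1.26, 1.25 and 2.01 CPM in ApoYap ctrl (log2 fold change −3.71, SE 0.59, adjusted p = 4.9e-06; −4.33 without ApoYap Dox 2). Lamb3 stood at 0.346, 0.479 and 0.371 CPM in Lats1/2 KO against 1.65, 0.909, 1.67 and 0.690 CPM in Lats1/2 flox ctrl (log2 fold change −1.59, SE 0.53, adjusted p = 0.02). Every ApoYap Dox and Lats1/2 KO library lay under its controls for both genes. The knockout call of Lamb3 was lost without Lats1/2 KO 1 (−1.51), Lats1/2 KO 3 (−1.53), Lats1/2 flox ctrl 1 (−1.41) or Lats1/2 flox ctrl 3 (−1.41), and with total counts alone (−1.13).

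Among the glycoproteins, Sparc rose in both models, while Fn1 was called lower under YAP induction except with total counts alone, and in the knockout it was called, as higher, with total counts alone only. Sparc, a protein that binds collagen outside the cell (chromosome 11, 55394500 to 55423183, minus strand), was at 289.7, 193 and 369 CPM in ApoYap Dox against 19, 29.3, 35.6 and 50.5 CPM in ApoYap ctrl (log2 fold change 3.08, SE 0.49, adjusted p = 1.7e-05). Sparc stood at 193, 388 and 111 CPM in Lats1/2 KO against 36.5, 16.2, 25.1 and 25 CPM in Lats1/2 flox ctrl (log2 fold change 3.16, SE 0.50, adjusted p = 6.7e-05; 2.56 without Lats1/2 KO 2). The groups did not overlap, and in ApoYap Dox the mean level of Sparc, 284 CPM, was about that of Fn1, 285 CPM. Fn1 was at 326, 331 and 198 CPM in ApoYap Dox against 399, 430.1, 519 and 452 CPM in ApoYap ctrl (log2 fold change −0.66, SE 0.16, adjusted p = 0.00079), a fall that scaling by total counts alone turned to 0.24 (adjusted p = 0.16). In Lats1/2 KO it was at 526, 394 and 311 CPM against 400.0, 439, 441 and 411 CPM in Lats1/2 flox ctrl, with overlap and no call (log2 fold change −0.04, SE 0.16, adjusted p = 0.86). Scaling by totals alone called it higher (0.42, adjusted p = 0.028).

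Thbs1, which encodes thrombospondin, an activator of latent TGF-β that platelets also carry, was at the edge of detection. It held 33, 32 and 24 counts in the ApoYap Dox libraries against 0, 4, 0 and 0 in ApoYap ctrl, so that 1 control library held all the counts of its group. The ratio of scaled counts was 14.4 (95% interval 5.44 to 54.1), which covers counting error only, and the fitted value was 3.71 (SE 0.98, adjusted p = 0.0021; 6.93 without ApoYap ctrl 2). In Lats1/2 KO it had 3, 10 and 0 counts against 0, 0, 2 and 0 in Lats1/2 flox ctrl and was not called (log2 fold change 2.25, SE 1.34, adjusted p = 0.2). Fbn1, the main component of microfibrils, and Fbln5, which helps to assemble elastic fibres, were called higher in both comparisons. Fbn1 was at 2.17, 1.54 and 2.46 CPM in ApoYap Dox against 0.283, 0.503, 0.623 and 0.301 CPM in ApoYap ctrl (log2 fold change 2.26, SE 0.46, adjusted p = 0.00013). Fbn1 stood at 2.85, 3.83 and 0.743 CPM in Lats1/2 KO against 0.439, 0.681, 0.596 and 1.08 CPM in Lats1/2 flox ctrl (log2 fold change 1.78, SE 0.45, adjusted p = 0.0029), where the groups overlapped. Fbln5 rose by 2.23 under YAP induction (1.22 to 1.98 CPM in ApoYap Dox, with 0.0838 to 0.636 CPM for ApoYap ctrl). It rose by 2.64 in the knockout (1.11 to 1.92 CPM in Lats1/2 KO against 0 to 0.329 CPM in Lats1/2 flox ctrl).

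**Figure D4:**
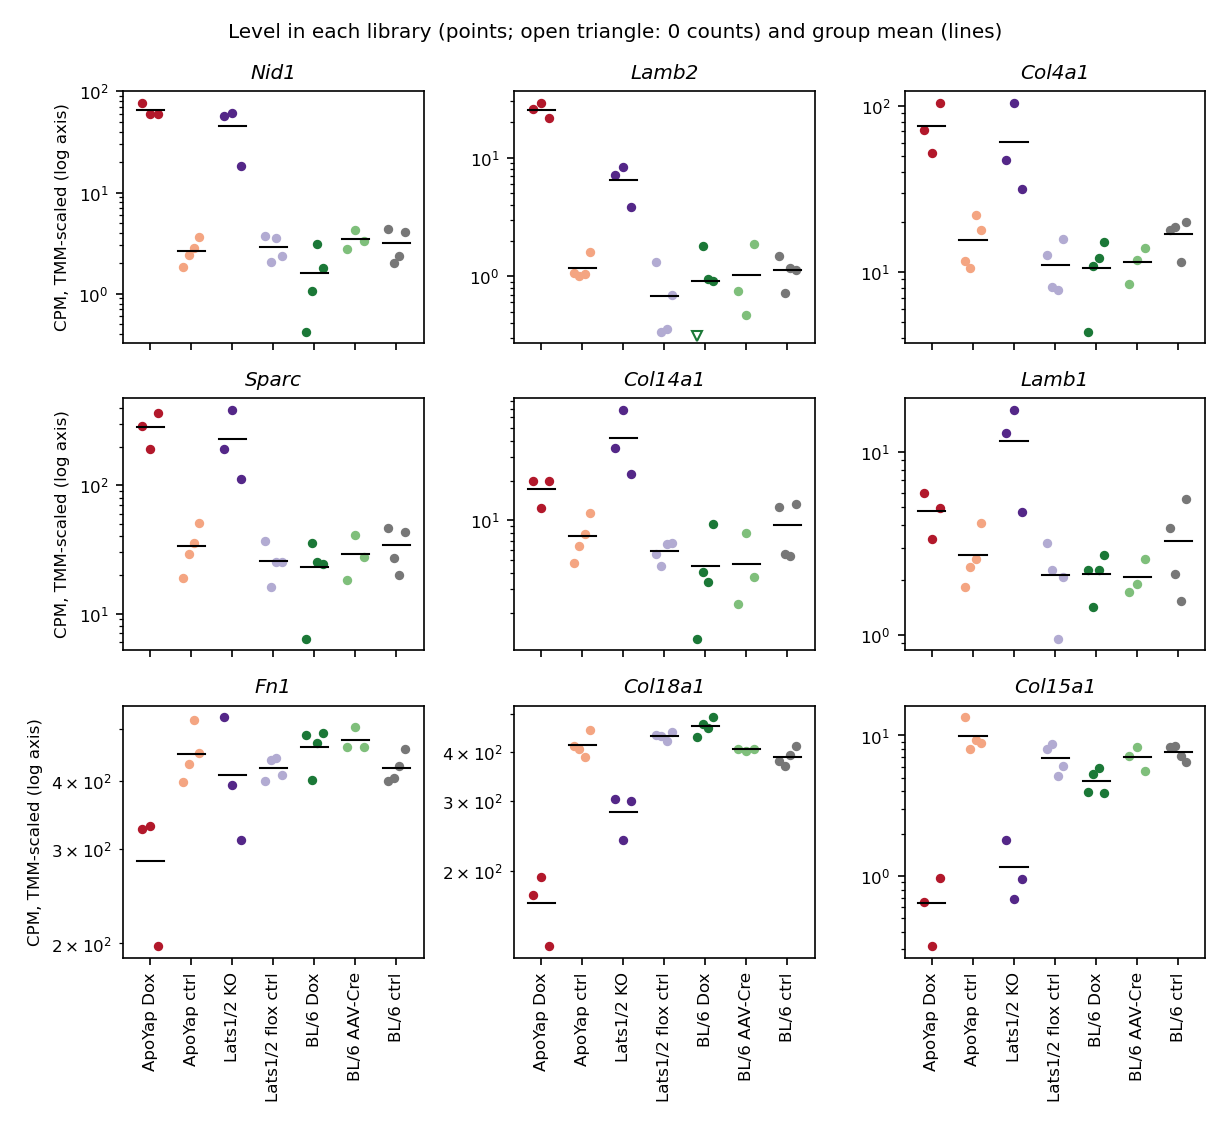
TMM-scaled CPM (log axis) of 9 matrix genes in each of the 25 libraries, with group means as lines. Nid1, Lamb2, Col4a1 and Sparc are higher in ApoYap Dox and Lats1/2 KO than in every other library, Col14a1 and Lamb1 reach their highest levels in Lats1/2 KO 2 (68.4 and 17 CPM), and Col18a1 and Col15a1 are lower in ApoYap Dox and Lats1/2 KO; Fn1 is lower in ApoYap Dox, but not with total counts alone.

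The 3 fibril-associated collagens that were tested, a class that decorates fibrils, rose in both models. Col14a1 was at 19.8, 12.4 and 19.8 CPM in ApoYap Dox against 4.73, 6.37, 7.89 and 11.3 CPM in ApoYap ctrl (log2 fold change 1.20, SE 0.47, adjusted p = 0.029). Col14a1 stood at 35.3, 68.4 and 22.5 CPM in Lats1/2 KO against 5.60, 4.54, 6.67 and 6.71 CPM in Lats1/2 flox ctrl (log2 fold change 2.83, SE 0.49, adjusted p = 0.00013). Every Lats1/2 KO library exceeded every ApoYap Dox library, yet the difference of the fold changes, 1.63, did not pass (SE 0.68, adjusted p = 0.077). Col12a1 rose by 1.21 under YAP induction, with overlap, and by 2.20 in the knockout (1.79 to 3.94 CPM in ApoYap Dox, with 0.636 to 1.87 CPM for ApoYap ctrl, and 1.86 to 5.10 CPM in Lats1/2 KO against 0.596 to 0.887 CPM in Lats1/2 flox ctrl). Col16a1 rose by 2.51 under YAP induction and by 3.26 in the knockout (1.36 to 2.03 CPM in ApoYap Dox, with 0.141 to 0.602 CPM for ApoYap ctrl, and 0.743 to 3.97 CPM in Lats1/2 KO against 0.0986 to 0.341 CPM in Lats1/2 flox ctrl).

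Collagen VI, a beaded filament of chains from Col6a1, Col6a2 and Col6a3, was under 4 CPM in every library. Under YAP induction Col6a2 (log2 fold change 1.31, SE 0.56, adjusted p = 0.042) and Col6a3 (log2 fold change 1.87, SE 0.54, adjusted p = 0.0036) were called higher and Col6a1 was not (log2 fold change 1.04, SE 0.58, adjusted p = 0.12), although its 3 ApoYap Dox libraries, at 0.939, 0.633 and 1.06 CPM, were above the 0.424, 0.168, 0.623 and 0.501 CPM of ApoYap ctrl. In the knockout all 3 were called higher, by 2.46 for Col6a1, 3.01 for Col6a2 and 1.61 for Col6a3. The groups overlapped for Col6a2 under YAP induction and for Col6a3 in the knockout. Col13a1, a collagen that spans the cell membrane, rose by 1.23 under YAP induction (6.68 to 11.3 CPM in ApoYap Dox, with 2.54 to 6.42 CPM for ApoYap ctrl). It rose by 1.78 in the knockout (8.82 to 22.4 CPM in Lats1/2 KO against 1.97 to 8.23 CPM in Lats1/2 flox ctrl). Col8a1, a short network collagen of vessel walls, rose under YAP induction only (log2 fold change 2.75, SE 0.91, adjusted p = 0.0099; knockout 1.75, adjusted p = 0.21). The test of the difference of its responses did not pass (−1.0, adjusted p = 0.68).

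The 19 members that were not tested held 11 to 109 counts over all libraries, and are described by counts summed over the libraries of a group. In ApoYap Dox Col11a2 had 55 counts, Fbln2, a fibulin of basement membranes, 34, Col23a1 34 and Thbs2 29, against 4, 2, 4 and 2 in ApoYap ctrl. Their ratios of scaled counts were 8.91 (95% interval 3.29 to 33.9) for Col11a2, a fibrillar chain of cartilage, 11.0 (95% interval 2.82 to 94.6) for Fbln2, 5.51 (95% interval 1.96 to 21.4) for Col23a1 and 9.40 (95% interval 2.38 to 81.3) for Thbs2. Col17a1 (18 counts), Fbln7 (14), Lamc3 (7) and Col9a3 (6) were at 0 in ApoYap ctrl. This puts ApoYap Dox at least 3.89-fold higher for Col17a1 and at least 3.02-fold higher for Fbln7, against a floor of 3 counts over the group. Over all libraries Col17a1 held 25 counts, Lamc3 14 and Col9a3 13. Without the ApoYap Dox counts, Col17a1, Lamc3 and Col9a3 would fall under the 10 counts required of a member. Their choice as members therefore depends on the group in which they are reported as higher. Tnc, which encodes tenascin C, a glycoprotein of wounds and tumours, had 14 counts in ApoYap Dox against 3 in ApoYap ctrl, a ratio of 3.02 (95% interval 0.844 to 16.4).

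In the knockout comparison Fbln2 had 34 counts in Lats1/2 KO against 3 in Lats1/2 flox ctrl, a ratio of 9.18 (95% interval 2.89 to 46.7). Most of these Fbln2 counts lay in Lats1/2 KO 2. The groups overlapped for Fbln2, at 0.106 to 1.98 CPM in Lats1/2 KO against 0 to 0.329 CPM in Lats1/2 flox ctrl. Lama2 had 13 counts in Lats1/2 KO against 1 in Lats1/2 flox ctrl, a ratio of 10.5 (95% interval 1.58 to 447). Gm48084 on the other strand overlaps the last 1000 bases of Lama2, so its counts are uncertain. Thbs2 (12 counts) and Tnc (11) were at 0 in Lats1/2 flox ctrl. Against a floor of 3 counts over Lats1/2 flox ctrl, the summed counts were 3.24-fold higher for Thbs2 and 2.97-fold higher for Tnc. Both values leave out the counting error of the Lats1/2 KO counts. All 12 Thbs2 counts lay in Lats1/2 KO 2 (0 to 0.821 CPM over Lats1/2 KO), so the Thbs2 value rests on 1 library. Col11a2 had 12 counts in Lats1/2 KO against 23 in Lats1/2 flox ctrl, a ratio of 0.422 (95% interval 0.192 to 0.885). Of the other untested members Col10a1, Col20a1, Col25a1, Col6a6, Col7a1, Fbln1, Fbn2 and Thbs3 had at most 16 counts in any of the 4 groups. Col17a1, Col23a1, Col9a3, Fbln7 and Lamc3 had 1 to 6 counts in Lats1/2 KO and in Lats1/2 flox ctrl, and Lama2 had 17 counts in ApoYap Dox against 6 in ApoYap ctrl. All these intervals cover counting error only.

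Neither doxycycline nor the virus gave a call for any of the 37 genes in BL/6 mice. In BL/6 Dox against BL/6 ctrl 0 genes were called higher and 0 lower (0.0231% and 0.100% of all genes were), with 8 of 37 at an unadjusted p under 0.05 (21.6%; 11.9% of all genes) and 0 calls by DESeq2. The median log2 fold change was −0.53, against 0 over all genes. In BL/6 AAV-Cre against BL/6 ctrl 0 were called higher and 0 lower (0.254% and 0.0463% of all genes were), with 2 at an unadjusted p under 0.05 (5.41%; 13.3% of all genes), 0 calls by DESeq2 and a median of −0.14. Sparc was at 6.35, 35.7, 25.1 and 24.3 CPM in BL/6 Dox and 18.3, 40.9 and 27.8 CPM in BL/6 AAV-Cre against 46.4, 27.2, 20.0 and 42.9 CPM in BL/6 ctrl. BL/6 Dox 1, with the lowest stellate cell and endothelial marker sums, was the lowest of all 25 libraries for Sparc, Nid1, Col4a1 and Col14a1. Col15a1 was at 3.95, 5.36, 5.85 and 3.89 CPM in BL/6 Dox against 8.33, 8.47, 7.18 and 6.42 CPM in BL/6 ctrl, without overlap but without a call (log2 fold change −0.67, SE 0.27, adjusted p = 0.32).

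Each response was also set against that of its treatment control as a difference of fold changes. The YAP response less the doxycycline response in BL/6 gave 23 higher and 7 lower calls (26.7% and 27.4% of all genes), a median of 2.25 and values of 5.57 for Nid1 (SE 0.60, adjusted p = 1.2e-07), 5.04 for Col5a2 (SE 0.85, adjusted p = 1.9e-05) and 3.66 for Sparc (SE 0.67, adjusted p = 0.00013). Without BL/6 Dox 1 and 2 together there were 20 higher and 7 lower calls. The knockout response less the virus response, which was taken at 24 hours and not at 1 week, gave 17 higher and 4 lower calls (13.0% and 11.4% of all genes; 21 and 1 of the 37 with total counts alone) and a median of 2.19, with 3.88 for Nid1 (SE 0.60, adjusted p = 0.00015) and 2.90 for Col4a2 (SE 0.56, adjusted p = 0.00094). Both differences share BL/6 ctrl. Here, too, 12 of the 37 genes had passed the filter only through the ApoYap Dox or Lats1/2 KO libraries and had little room to be called lower. Col5a2, Col6a2, Fbln5 and Thbs1 are among them. Calls over the other 25 genes alone are not given for these differences.

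The responses to knockout and to YAP induction differed for 10 of the 37 genes, with 9 called higher in the knockout response (24.3%; 17.4% of all genes) and 1 called lower (12.4% of all genes). The median difference was 0.55, against −0.01 over all genes. Col5a3 (1.46, SE 0.36, adjusted p = 0.0037) and Col18a1 (0.69, SE 0.16, adjusted p = 0.0024) fell less in the knockout than under YAP induction, as did Col27a1 (1.52, adjusted p = 0.011), Lama3 (1.30), Col15a1 (1.31) and Lamb3 (2.13). Lama1 (3.52, adjusted p = 0.044) and Lamb1 (1.59, adjusted p = 0.042) rose more in the knockout, the Fn1 difference was 0.62, and Col1a1 was the gene called lower (−1.26, adjusted p = 0.04). These calls were near the threshold: 3 to 8 genes were called higher when single libraries were left out and 1 with total counts alone, which also gave 1 lower call, and of the 8 called differences that were followed through all alternatives Col5a3 was the only one called in each.

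**Figure D5:**
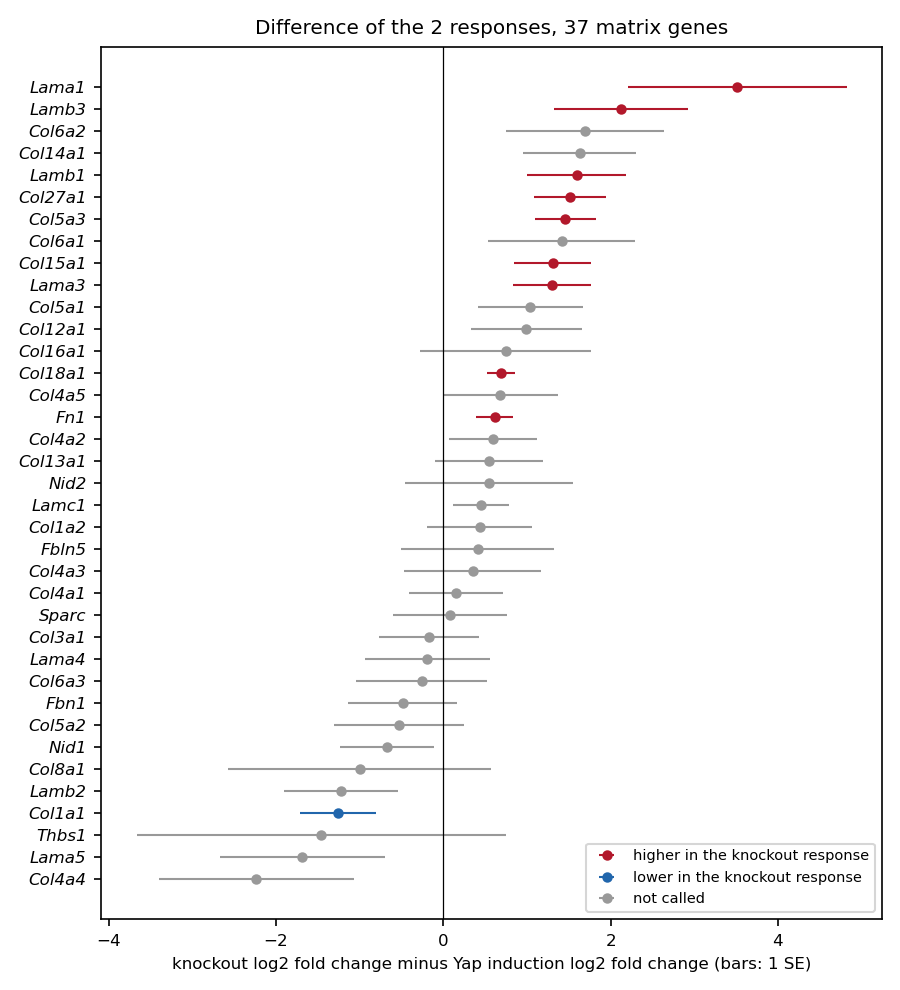
Difference of the log2 fold changes, Lats1/2 KO response minus YAP induction response, with its standard error, for the 37 tested matrix genes in order of size. Red marks 9 genes called higher in the knockout response, blue 1 called lower (Col1a1, −1.26), and grey 27 that were not called.

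Genes that build, modify or bind the matrix were followed as lists drawn up from their known functions. Earlier results of these data were known when the lists were chosen, so their counts are no independent support. All medians below stand against 0.07 over all genes under YAP induction and −0.03 in the knockout. The counts of calls stand against 35.0% of all genes called higher and 32.0% lower under YAP induction. In the knockout these shares were 20.6% and 17.4%. Of 23 tested genes of collagen biosynthesis and crosslinking 15 were higher and 6 lower under YAP induction (median 1.63) and 10 higher and 3 lower in the knockout (median 0.33). Those with the smallest p under YAP induction were Plod1, a lysyl hydroxylase (log2 fold change 1.63, SE 0.15, adjusted p = 5.5e-10), the procollagen processing enhancers Pcolce (4.05) and Pcolce2 (4.86) and Colgalt1, which adds galactose to collagen (1.06). In the knockout they were Pcolce2 (3.18), the collagen chaperone Serpinh1 (2.85), Fkbp10 (6.11) and Pcolce (2.10). Genes of general secretion in this list were lower in both with TMM scaling, and none of its 23 genes was called lower with total counts alone. They were Mia2 (−1.08 under YAP induction, −0.57 in the knockout) and Mia3 (−1.10 and −0.61), which export large cargo from the endoplasmic reticulum, and P4hb (−1.02 and −0.37), which is also the protein disulfide isomerase. Bmp1, a procollagen proteinase, was lower under YAP induction with TMM scaling (−1.19) and was not called with total counts alone (−0.28).

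Of 22 tested matrix receptors 15 were higher and 3 lower under YAP induction (median 1.21) and 12 higher and 2 lower in the knockout (median 0.70). Cd36, a thrombospondin receptor (1.96 and 2.63), and Cd44, a hyaluronan receptor (6.02 and 3.18), rose in both. Itgb5 (1.31) and Sdc3 (5.69) led with them under YAP induction, and the integrin chains Itgb3 (3.84) and Itga6 (2.17) in the knockout. The syndecans of hepatocytes, Sdc1 (−1.78 and −0.68) and Sdc4 (−1.76 and −0.70), fell in both, and Sdc2 fell under YAP induction (−0.66). With total counts alone Sdc1 and Sdc4 remained lower under YAP induction (−0.87 and −0.85) and were not called in the knockout (−0.22 and −0.24), and Sdc2 was at 0.25. Of 19 other matrix glycoproteins and proteoglycans 17 were higher and 2 lower under YAP induction (median 2.64) and 13 higher and 2 lower in the knockout (median 2.05). Efemp1 (5.18 and 2.75) and Tgfbi (4.22 and 3.34) rose in both. Emilin2 (5.64) and Smoc2 (2.74) were among the first 4 under YAP induction, and Spon2 (2.74) and Ecm1 (2.68) in the knockout. The 2 lower genes in both were Vtn (−1.49 and −0.78), which encodes vitronectin, a plasma protein of hepatocytes like fibronectin, and Smoc1 (−1.79 and −1.06). With total counts alone the knockout value of Vtn, −0.31, was not called.

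Promoter windows were in the RefSeq table for 40 of the 56 members. GGAATG, read on both strands, was in 7 of them (Col18a1, Col20a1, Col3a1, Col6a2, Fbln7, Lamb3 and Nid1), against 16.6% of 27025 gene symbols with a window. Of the genes called higher under YAP induction 3 of 17 with a window held it (Col3a1, Col6a2 and Nid1), and of those called lower 2 of 5 (Col18a1 and Lamb3). The AP-1 motif TGANTCA, also on both strands and without overlap with GGAATG, was in the window of 1 member, Col6a1, against 8.97% of symbols. Col4a1 and Col4a2, shown above, hold neither.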

How the data were processed

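RNA of 25 sorted hepatocyte samples was sequenced from its 3′ ends (QuantSeq 3′ FWD). The deposited table holds raw counts per gene; per the submitters' processing notes FastQC, cutadapt and STAR 2.6.1d were used with mm10 (GRCm38), while the counting tool, annotation and strand setting were not given in the sources used here. Groups came from the sample titles. All 7 groups were fitted together with edgeR 4.0.16 (quasi-likelihood, robust, TMM scaling, 1 mean per group, R 4.3.3) after a filter by group (minimum count 10, minimum total 15), which left 12970 genes. Each of 7 contrasts had its p-values adjusted over these genes (Benjamini-Hochberg), at a threshold of 0.05. The fit was tested on simulated data with 200 changed genes. No pair of replicates was closer than sampling noise (lowest chi-square per degree of freedom 7.13). CPM are TMM-scaled. Members too low to test were described by summed counts with exact 95% binomial intervals of the ratio, which cover counting error only. The members and lists were chosen with earlier results of these data known. Values are given for 13 fixed members, for up to 12 called each way by fold size in the main contrasts and up to 5 in the others, for up to 4 genes each way by p in the pathway lists, and otherwise as ranges; the values of 1 member are not reported here. Alternatives were other scalings, DESeq2 1.42.0, no filter, a fit of the compared groups alone, the replicate number as a block and leaving libraries out. Total counts alone for the pathway and marker lists were added after seeing the data. Gene coordinates are GENCODE M21 (GRCm38) and promoters RefSeq GRCm38.p6.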

Additional observations from a re-analysis of the deposited data

Results flagged for a closer look

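The highest or lowest library of a group stood apart from the others, by the size of its gap against the range of its group, for 10 of 119 gene and group pairs with 4 libraries among the 30 members followed by name. Chance gives about 1 in 20 for normally distributed values, a rate that does not hold for low counts. Where 1 library alone is above 0 a pair is always flagged, as for Col4a4 in BL/6 ctrl and Thbs1 in ApoYap ctrl and Lats1/2 flox ctrl. The flagged genes in BL/6 ctrl 1 were Col1a1 (18.7 CPM), Col4a4 (0.393 CPM) and Nid2 (0.707 CPM), and in BL/6 ctrl 4 Col5a3 (15.9 CPM). In ApoYap ctrl 4 they were Lamb2 (1.60 CPM) and Lamb3 (2.01 CPM), and in ApoYap ctrl 2 Thbs1 (0.335 CPM). In Lats1/2 flox ctrl they were Col5a2 in replicate 1 (0.658 CPM), Thbs1 in replicate 3 (0.238 CPM) and Col6a2 in replicate 3, which had a count of 0.

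The response to YAP induction was tested against the response of BL/6 mice to doxycycline as a difference of fold changes (log2 scale, edgeR). Over all tested members 23 were called higher and 7 lower. The 20 called members that were named for this contrast are given here. The difference was 5.57 for Nid1, 5.04 for Col5a2, 4.73 for Lamb2, 4.03 for Col6a2, 3.66 for Sparc, 3.00 for Col1a2, 2.96 for Col4a1, 2.40 for Col3a1, 1.90 for Col4a2, 1.63 for Lamc1, 1.43 for Lamb1, which was called in 11 of 22 alternatives, and 1.41 for Col1a1. It was 7.14 for Thbs1, which rests on few counts. It was −3.69 for Lamb3, −3.27 for Col15a1, −2.95 for Col5a3, −2.75 for Lama3, −2.09 for Col27a1, −1.59 for Col18a1 and −0.79 for Fn1, which total counts alone turned to 0.13.

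The response to the knockout at 1 week was tested in the same way against the response of BL/6 mice 24 hours after the virus. Over all tested members 17 were called higher and 4 lower. The 15 called members that were named for this contrast are given here. The difference was 5.51 for Col6a2, 5.13 for Lama1, 3.88 for Nid1, 3.83 for Col14a1, 3.76 for Fbln5, 3.41 for Sparc, 3.08 for Lamb1, 3.01 for Col4a1, 2.90 for Col4a2, 2.72 for Col1a2 and 1.58 for Lamc1. It was −2.50 for Col15a1, −1.44 for Lama3, −1.23 for Col5a3 and −0.71 for Col18a1, and these last 3 were not called with total counts alone.

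For the knockout response less the YAP response 9 members were called higher and 1 lower, and 8 of these were named for this contrast. The difference was 3.52 for Lama1, 2.13 for Lamb3, 1.59 for Lamb1, 1.52 for Col27a1, 1.46 for Col5a3, 0.69 for Col18a1, 0.62 for Fn1 and −1.26 for Col1a1.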

How the results depend on the processing

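Counts of members called under YAP induction and in the knockout stayed within 1.5 times the reported ones under every alternative, except that total counts alone gave 3 lower calls in the knockout; leaving out single libraries gave 21 to 26 higher and 7 lower calls under YAP induction and 20 to 25 higher and 4 to 6 lower in the knockout. In every alternative 23 of 24 named calls held under YAP induction, 19 of 23 in the knockout, 16 of 20 and 12 of 15 net of doxycycline and of the virus, and 1 of 8 in the knockout response less the YAP response. That last contrast gave, in place of 9 higher and 1 lower, 1 higher with total counts alone, 4 without a filter, 5 and 0 lower with the compared groups only, 5 and 0 lower with the replicate block, and 3 to 8 higher and 0 to 2 lower without single libraries, the fewest without Lats1/2 KO 1. Net of the virus, total counts alone gave 1 lower call. The replicate numbers do not pair the samples: same-numbered libraries deviated together with correlations of −0.240 to 0.164, and not every library was closest to its own number.

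Total counts alone turned Fn1 to 0.24 under YAP induction, 0.42 in the knockout, 0.13 net of doxycycline and 0.24 net of the virus, Col1a1 to 0.38 in the knockout and 0.12 net of the virus, and, in the knockout response less the YAP response, Col4a1 to −0.26 and Sparc to −0.34, where the replicate block gave Sparc −0.080. Fn1 in the knockout was 0.028 with RLE scaling, 0.028 with DESeq2 and 0.022 with the compared groups only. Thbs1 after the virus alone was −0.35 with the replicate block. Uncalled values changed sign without single libraries: in the knockout Fn1 (−0.26 to 0.12) and Col1a1 (−0.37 to 0.15), with doxycycline alone Col1a1 (−0.38 to 0.092) and Col4a2 (−0.58 to 0.048), with the virus alone Col3a1 (−0.30 to 0.40), Lamc1 (−0.19 to 0.34), Thbs1 (−3.45 to 0.68) and Nid1 (−0.083 to 0.29), and in the knockout response less the YAP response Col1a2 (−0.37 to 0.84), Col3a1 (−0.72 to 0.18), Col4a1 (−0.47 to 0.47), Thbs1 (−4.68 to 1.21) and Sparc (−0.52 to 0.42). The cause was not tested. Net of doxycycline Lamb1 lost its call in 11 of 22 alternatives, each of which left libraries out (1.07 to 1.45), Col1a1 without ApoYap Dox 3 (1.04) and Thbs1 without BL/6 ctrl 1 (6.78). Net of the virus Lama3 lost its call with total counts alone (−0.99), without a filter (−1.42) and without Lats1/2 KO 2 (−1.24), BL/6 AAV-Cre 1 (−1.37) or BL/6 AAV-Cre 3 (−1.37), and Col5a3 (−0.77) and Col18a1 (−0.26) with total counts alone. At this depth 19 members were too low to test.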
